A study of Mus musculus with 9 samples.

Results

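Genes that mark neutrophils were followed across 9 microarrays of mouse lung RNA. The set had 10 named genes, S100a8, S100a9, Ngp, Mmp8, Mmp9, Retnlg, Csf3r, Cxcr2, Il1r2 and Trem1, all known to mark neutrophils. The set was chosen by earlier values of these same arrays, in which neutrophil genes were highest on an HE array and lower in HO than in HE. Their own values are therefore given as a description. Counts of calls among them are printed only beside the share over all probe sets, and nothing is read from those counts. Of the 22690 probe sets in the table, 10 carried the symbol of a member, for 9 of the 10 genes: Mmp9 had 2 probe sets and no probe set was named Retnlg. Of these 10 probe sets, 6 were bright enough to enter the tests (S100a8, S100a9, Ngp, Mmp8, Csf3r and 1 of Mmp9). Those of Cxcr2, Il1r2 and Trem1 and the other of Mmp9 lay below the signal filter, and their differences come from a fit without it.

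The study asked what extra normal human CFTR does in the lung. CFTR is an anion channel of epithelia, and its loss causes cystic fibrosis. All mice were adult and of strain FVB/N, and the transgene was a human CFTR cDNA under the promoter of a surfactant protein C (SP-C) gene. That promoter is active in respiratory epithelial cells and not in neutrophils. WT mice carried no transgene (mCftr+|+; the third WT sample has no genotype entry), HE mice 1 transgenic allele (SP-C-hCFTR+|-/mCftr+|+) and HO mice 2 (SP-C-hCFTR+|+/mCftr+|+), and the transgenic mice thus had their own Cftr genes intact. There were 3 arrays in each group. The labels of HO replicate 2 conflict: 2 alleles by title and genotype entry, 1 by description. The labels do not say that each array came from a separate animal, so the spread between arrays may be partly technical. The sources used here do not say whether the lungs were flushed of blood.

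Neutrophils are short-lived white blood cells that kill microbes with granule proteins and reactive oxygen. They leave the bone marrow with their granules already filled, circulate for hours, and are held in large numbers in the narrow capillaries of the lung even when it is not inflamed. Chemokines such as those of the Cxcl family draw them into tissue, and the growth factor G-CSF raises their number. Transcription factors of the C/EBP family and PU.1 act on many granulocyte genes. In RNA of a whole lung, fewer neutrophils and less RNA per neutrophil cannot be told apart.

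The start regions of 4 members are shown because S100a8, S100a9 and Mmp8 moved together across the arrays and Ngp varied least of the members. Each is the 250 bases before the gene's start in RefSeq (build GRCm38.p6, strain C57BL/6J), 5′ to 3′ on the gene's strand: S100a8 at chr3:90668821-90669070 (+), S100a9 at chr3:90695722-90695971 (-), Mmp8 at chr9:7558179-7558428 (+) and Ngp at chr9:110419558-110419807 (+). Capitals mark matches on either strand to 3 short motifs. The C/EBP motif was TTNNGNAA. The PU.1 motif was GAGGAA. The TATA box was searched as TATAAA.
S100a8: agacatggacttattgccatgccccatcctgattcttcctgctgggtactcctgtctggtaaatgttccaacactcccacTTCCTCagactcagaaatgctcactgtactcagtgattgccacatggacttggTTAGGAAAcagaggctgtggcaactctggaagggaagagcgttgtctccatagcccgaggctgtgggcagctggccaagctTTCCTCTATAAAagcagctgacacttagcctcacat
S100a9: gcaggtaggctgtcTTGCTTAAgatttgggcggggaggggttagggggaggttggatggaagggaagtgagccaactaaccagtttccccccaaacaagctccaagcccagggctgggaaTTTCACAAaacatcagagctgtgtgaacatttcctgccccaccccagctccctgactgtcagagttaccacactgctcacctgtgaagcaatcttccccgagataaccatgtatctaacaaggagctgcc
Mmp8: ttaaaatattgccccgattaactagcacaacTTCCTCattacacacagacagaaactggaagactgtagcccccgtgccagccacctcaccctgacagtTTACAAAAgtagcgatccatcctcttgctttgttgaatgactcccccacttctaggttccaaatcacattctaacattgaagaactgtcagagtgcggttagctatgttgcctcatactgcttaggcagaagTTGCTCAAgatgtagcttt
Ngp: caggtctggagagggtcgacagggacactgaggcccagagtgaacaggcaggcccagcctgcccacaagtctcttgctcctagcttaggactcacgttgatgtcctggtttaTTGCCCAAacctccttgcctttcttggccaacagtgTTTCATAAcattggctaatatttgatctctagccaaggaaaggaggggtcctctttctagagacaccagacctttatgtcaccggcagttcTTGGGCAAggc
S100a8 held 1 C/EBP match, 2 PU.1 matches and 1 TATAAA. S100a9 held 2 C/EBP matches, Mmp8 2 of C/EBP and 1 of PU.1, and Ngp, the member that varied least, 3 of C/EBP. No match overlapped another. RefSeq windows were found for 9 of the 10 members (all but Mmp9), and of these 6 held a C/EBP match, 5 a PU.1 match and 1 a TATAAA. Among 32841 windows of the same length, 36.9% held a C/EBP match, 23.3% a PU.1 match and 12.4% a TATAAA. A match in letters does not show that a factor binds there.

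The arrays were alike in scaling. Median intensity ran from 697 to 742, the 3′ to 5′ ratio of Actb control probe sets from 1.07 to 1.39 and that of Gapdh from 0.768 to 0.885. HE replicate 3 and WT replicate 2, which lead in neutrophil signal, were at neither end of these ratios. HO replicates 1 and 2 had the highest ratios for Actb (1.35 and 1.39) and Gapdh (both 0.885). Their medians, 697 and 699, were the lowest, while HO replicate 3 had ratios of 1.22 and 0.793. Across the arrays, r with the mean signal of the members was -0.11 for the Actb ratio and -0.12 for Gapdh. The part of these measures in the neutrophil values was not tested. Markers of the labelled tissue were present on every array: all 13 alveolar epithelial genes and 9 lung endothelial genes with a probe set passed the filter, and none fell to the floor on any array. The number of arrays, 3 per group, limits the precision.

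S100a8 and S100a9 had the widest spread within genotypes among the 6 member probe sets tested. They encode the calcium-binding proteins that together form calprotectin, the most abundant protein of the neutrophil's cytoplasm. S100a8 signal was 4123, 20928 and 4963 in WT replicates 1, 2 and 3, 5025, 13692 and 28647 in HE, and 11532, 3546 and 3714 in HO. S100a9 was at 2756, 18537 and 3203 in WT, at 3276, 9201 and 25425 in HE, and at 8275, 2602 and 2653 in HO. Both were highest in HE replicate 3 and next in WT replicate 2, with HE replicate 2 and HO replicate 1 between these and the other 5 arrays, so the 3 genotypes overlapped. From the lowest array to the highest the signal spanned 8.08-fold for S100a8 and 9.77-fold for S100a9. Within WT alone it spanned 5.08-fold and 6.73-fold.

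The genotype means of these genes differed by about as much as the arrays within a genotype. On the log2 scale S100a8 averaged 12.88 ± 1.28 (SD, n = 3) in WT, 13.61 ± 1.26 in HE and 12.38 ± 0.96 in HO. Its difference was 0.73 ± 0.71 (moderated SE) for HE minus WT, -0.50 ± 0.71 for HO minus WT and -1.23 ± 0.71 for HO minus HE, and the last, the contrast used to choose the set, had a 95% interval of -2.80 to 0.34. S100a9 followed it with 0.74 ± 0.81, -0.51 ± 0.81 and -1.25 ± 0.81. The spread within genotypes, 1.18 for S100a8 and 1.35 for S100a9 as a pooled SD of log2 values, exceeded that of 99.96% and 99.97% of the 13576 probe sets tested, whose median was 0.197. S100a8 is read by a probe set whose suffix marks probes shared by more than 1 transcript.

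**Figure D1:**
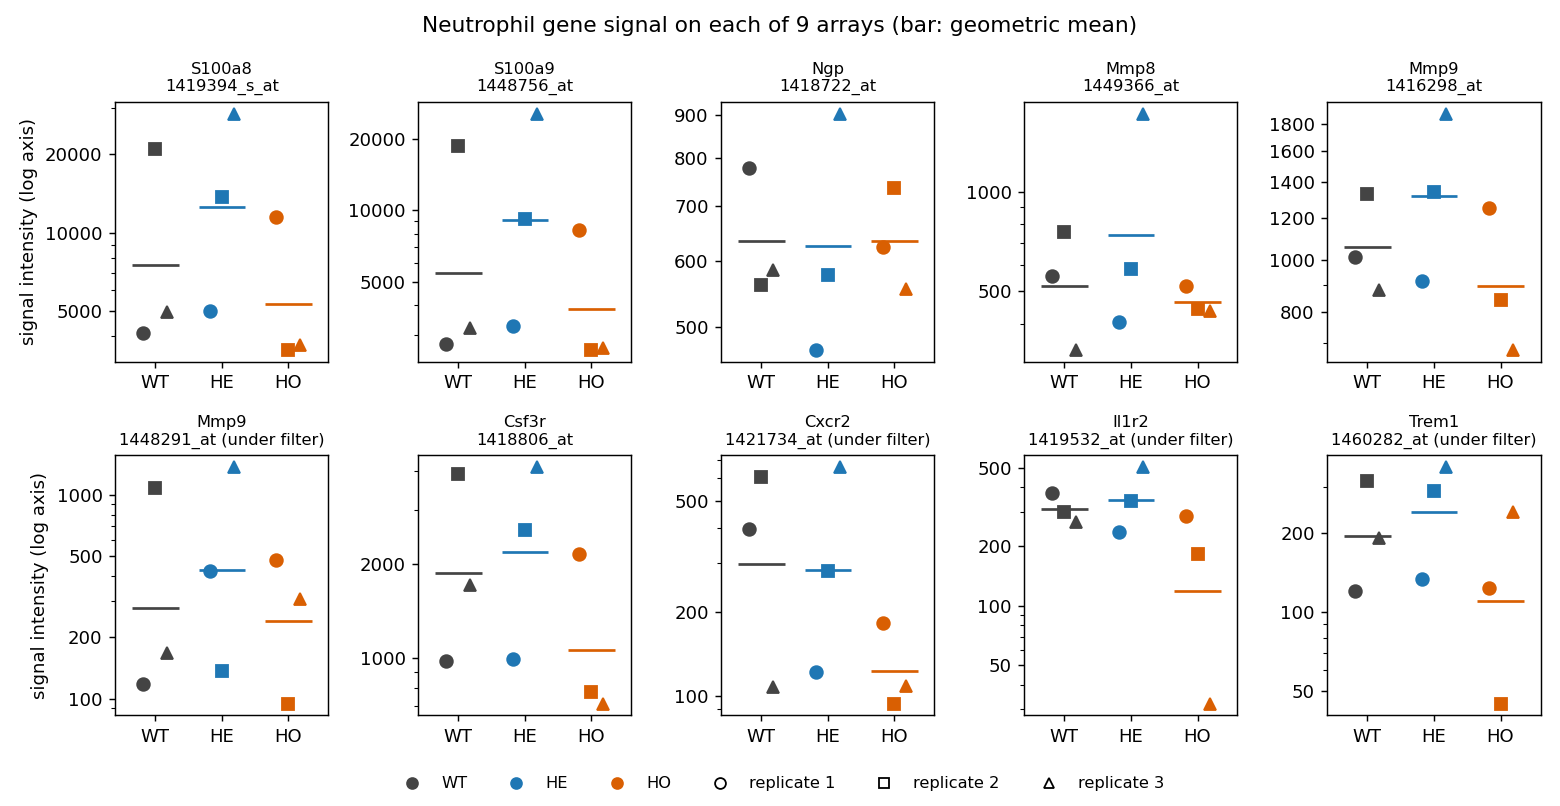
Signal intensity (log axis) of the 10 member probe sets on each array, by genotype (colour, columns) and replicate number (symbol), with the geometric mean of each group as a bar. HE replicate 3 was the highest of the 9 arrays at all 10 probe sets, and every genotype overlapped both others.

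The granule and secreted proteins differed in how far they moved. Mmp8, neutrophil collagenase, and Mmp9, gelatinase B, are proteases stored in neutrophil granules, and Ngp is a granule protein of the cathelicidin-related family that is made while neutrophils mature in the bone marrow. Mmp8 was at 555, 755 and 333 in WT, at 403, 586 and 1721 in HE, and at 521, 442 and 436 in HO. HE replicate 3 alone stood above 1000 for Mmp8, and the WT arrays enclosed all 3 HO arrays. Without HE replicate 3 the difference of HE from WT changed from 0.51 to -0.09 on the log2 scale.

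Mmp9 at its brighter probe set was at 1014, 1329 and 881 in WT, at 912, 1342 and 1881 in HE, and at 1254, 841 and 679 in HO. It kept the order of S100a8 closely but spanned only 2.77-fold. The dimmer Mmp9 probe set ran from 94.7 to 1366 and put HE replicate 2, at 136, among the low arrays, where the brighter one put it second of 9. Across the 9 arrays the probe sets of Mmp9 correlated at r = 0.58. In HO minus HE they gave -0.56 ± 0.28 and, below the filter, -0.83 ± 1.14.

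Ngp was at 777, 561 and 586 in WT, at 469, 577 and 904 in HE, and at 625, 735 and 556 in HO. It spanned 1.93-fold, the least of the set, and its genotype means were 9.31 ± 0.26 (SD, n = 3), 9.29 ± 0.48 and 9.31 ± 0.20 on the log2 scale. HO replicate 2, lowest of all arrays for S100a8, S100a9, Cxcr2 and Trem1, was the third highest for Ngp. For HO minus HE the 95% interval of Ngp was -0.48 to 0.52, narrower than that of any other member.

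The receptors followed the S100 genes at different distances. Csf3r encodes the receptor for G-CSF, and Cxcr2 the receptor through which neutrophils sense Cxcl1, Cxcl2 and Cxcl5. Csf3r was at 973, 3920 and 1719 in WT, at 987, 2570 and 4107 in HE, and at 2158, 775 and 711 in HO. Cxcr2, below the filter, was at 396, 609 and 108 in WT, at 122, 280 and 657 in HE, and at 183, 94.2 and 109 in HO. WT replicate 2 and HE replicate 3 were the highest arrays for both. The HO arrays of Cxcr2 were all low, but WT replicate 3 and HE replicate 1 lay among them.

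Il1r2, a decoy receptor that binds interleukin 1 without signalling, and Trem1, a receptor that amplifies inflammatory responses of myeloid cells, were dim. Il1r2 was at 370, 299 and 267 in WT, at 237, 338 and 502 in HE, and at 284, 184 and 32.1 in HO. The last value lies close to the floor of 25.8 applied to all intensities, and without that array the HO difference from HE was -0.59 on the log2 scale instead of -1.53. Trem1 was at 121, 317 and 193 in WT, at 134, 290 and 358 in HE, and at 124, 44.8 and 242 in HO. Trem1 thus placed HO replicate 3 among the higher arrays, where 8 of the 9 members had it among their lowest 3.

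**Figure D2:**
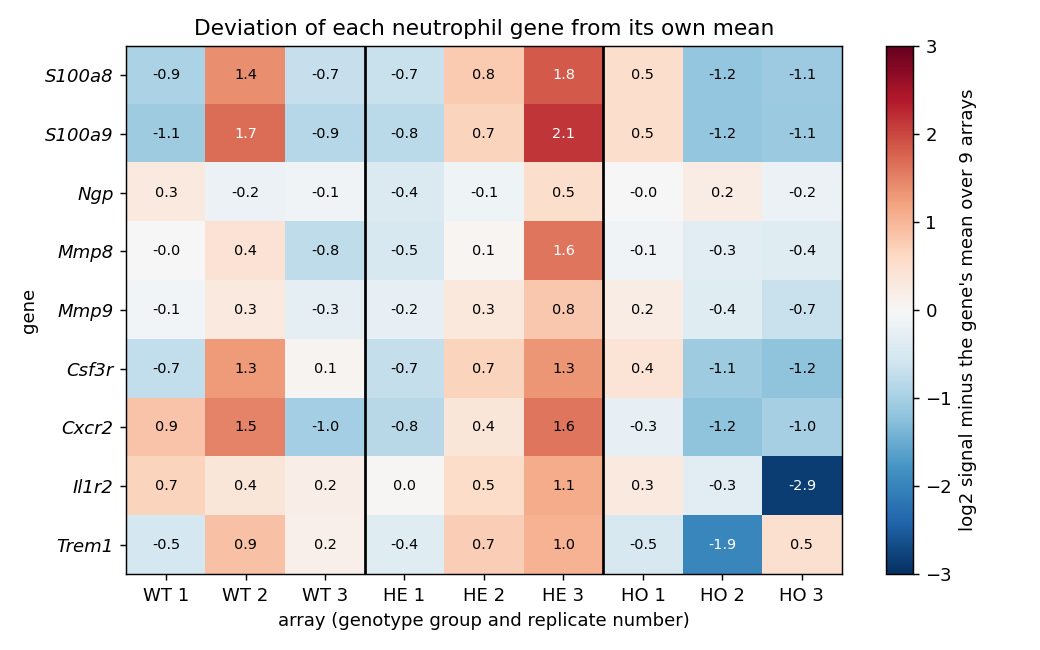
Each cell gives the log2 signal of a gene (rows, at its brightest probe set) on an array (columns) minus that gene's mean over the 9 arrays, with lines between the genotypes. The HE 3 column is positive for all 9 genes and the WT 2 column for 8, while HO 2 and HO 3 are negative for 8 of 9.

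Between genotypes, most members had lower estimates in HO than in HE, as the choice of the set had fixed. For HO minus HE, 8 of 9 genes were lower in HO, with a median log2 difference of -1.12 and a range of -1.53 (Il1r2) to 0.02 (Ngp), against a median of 0.005 over all 13576 probe sets tested. For HO minus WT all 9 point estimates were below 0, with a median of -0.51, though that of Ngp was -0.0005 and turned to 0.05 with quantile normalization or median centring. For HE minus WT 7 of 9 were above 0, with a median of 0.30. These comparisons share arrays, and HO minus HE was among the values that chose the set, so the counts are not independent of each other or of the choice.

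In these comparisons limma called 0 of the 6 members tested at an adjusted p of 0.05, and 0 had an unadjusted p under 0.05. Over all probe sets 0% were called in each, and 4.49% (HO minus WT), 3.11% (HE minus WT) and 2.56% (HO minus HE) had an unadjusted p under 0.05. The arrays of the compared genotypes overlapped for all 9 members in each comparison, while they did not overlap for 8.88%, 7.7% and 6.66% of all probe sets. The intervals remain wide: for Csf3r, HO minus WT was -0.82 ± 0.60, with a 95% interval of -2.14 to 0.50. A single array moved the medians. HE minus WT changed from 0.30 to -0.09 without HE replicate 3, HO minus WT from -0.51 to -0.09 without WT replicate 2, and HO minus HE from -1.12 to -0.59 without HE replicate 3. Counting HO replicate 2 as HE gave -0.45 for HO minus HE, 0.04 for HE minus WT and -0.20 for HO minus WT. Single arrays of HO mattered too: without HO replicate 1 HO minus WT was -1.05, and without HO replicate 2 or 3 it was -0.20 or -0.24. Among the other WT and HE arrays, it was -1.0004 without WT replicate 1 and -0.83 without WT replicate 3, and HE minus WT was 0.73 without HE replicate 1, 0.17 without HE replicate 2, 0.66 without WT replicate 2 and 0.19 without WT replicate 3.

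**Figure D3:**
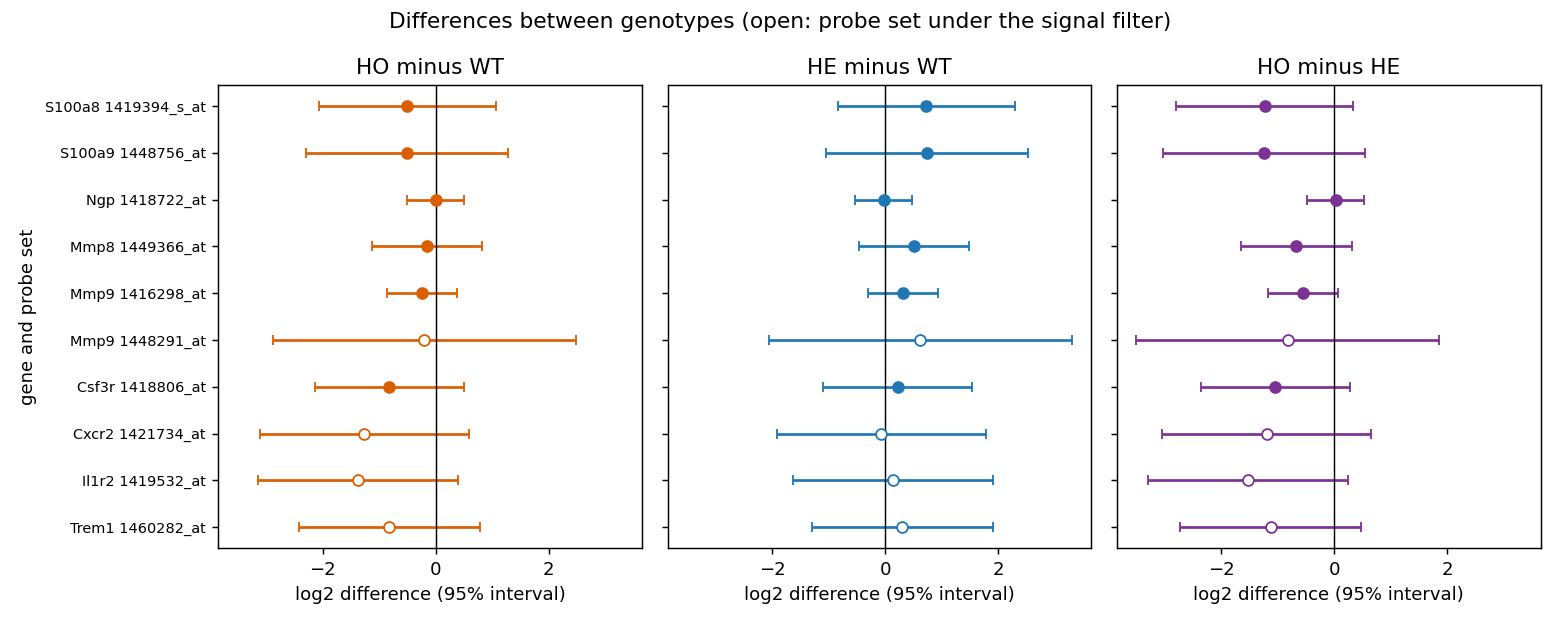
Log2 differences between genotypes for the 10 member probe sets, with 95% intervals from the fit over all arrays; filled points entered the test and open points lay below the signal filter. All 30 intervals include 0, and that of Ngp (-0.48 to 0.52 in HO minus HE) is the narrowest.

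The replicate numbers in the sample titles also group the arrays, since the source names of numbers 1, 2 and 3 begin with 3, 9 and 11. Each number holds 1 array per genotype. Within number 3, HE was above WT in 9 of 9 members (median 1.26) and HO below HE in 9 of 9 (median -2.53). HE replicate 3 was the highest array for all 9 members, and a high HE array was among the values that chose the set. The counts within number 3 that include HE thus follow from that choice. Within number 2, HO was below HE in 8 of 9 (median -1.57) and HE below WT in 6 of 9 (median -0.37). Within number 1 the order turned: HO was above HE in 8 of 9 members (median 0.46), with S100a8 higher by 1.20 and Csf3r by 1.13.

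Replicate number took a smaller share of the members' spread than the median over all probe sets tested. It took 6.86% of the squared deviations of S100a8, 8.42% for S100a9 and 2.15% for the brighter probe set of Mmp9, where the median over all probe sets tested was 29.2%. Genotype took 21.7%, 17.9% and 29.6%, against a median of 18.2%. Over the 10 member probe sets, the share of number ran from 2.15% (Mmp9) to 22.7% (Trem1), with Il1r2 at 11.7%. The share of genotype ran from 0.13% (Ngp) to 40.6% (Il1r2), with Cxcr2 at 30.8%. In a fit with genotype and number, 0 of the 6 tested members were called between numbers, where limma called 0.0295% of all probe sets between numbers 2 and 1 and 0% between number 3 and either of the others. At an unadjusted p under 0.05 the members again numbered 0, against 11.2% of all probe sets between 2 and 1, 11.6% between 3 and 1 and 8.61% between 3 and 2. Only Trem1 had numbers whose arrays did not overlap, with number 3 above number 1, as 20.5% of all probe sets tested did for that pair in either direction. Between numbers 2 and 1 and between 3 and 2 no member separated, against 16% and 14.2% of all probe sets.

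The members moved together across the 9 arrays. Each gene was set against the mean of the other 8, as a description without a p-value, since the arrays share their scaling and the genes were picked as a set. Pearson's r was highest for Mmp9 (0.96, Spearman's rho 0.97), S100a8 (0.95 and 0.92), S100a9 (0.94 and 0.92) and Csf3r (0.93 and 0.95). Cxcr2 (0.86 and 0.78) and Mmp8 (0.84 and 0.83) came next, then Trem1 (0.58 and 0.62), Il1r2 (0.57 and 0.87) and Ngp (0.34 and 0.38). The median r was 0.86. Over the 13576 probe sets tested, the median r with the mean of the members was -0.03, and 0.773% were above 0.8. A choice of genes by a shared high HE array itself favours a high r among them, so nothing is read from this gap.

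S100a8 and S100a9 kept the same order on all 9 arrays (rho 1, r = 0.9956). Their ratio of intensities, which does not measure a ratio of transcripts because the probe sets differ, was 1.13 on both HE replicate 3 and WT replicate 2 and between 1.36 and 1.55 on the other 7. S100a8 and Csf3r correlated at 0.96. Of the 36 pairs of members 35 had an r above 0, the exception being Ngp with Trem1 (-0.10). After each genotype's mean was subtracted, r with the other members was 0.96 for S100a8, S100a9 and Mmp9, 0.91 for Csf3r, 0.84 for Mmp8 and Cxcr2, and 0.44 for Ngp. For Trem1 it fell to 0.41 and for Il1r2 to 0.39.

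The joint movement was weaker without HE replicate 3 and WT replicate 2. Leaving out both lowered the median r over the members from 0.86 to 0.63. Over the remaining 7 arrays r was 0.95 for Mmp9, 0.86 for S100a8 and Csf3r and 0.82 for S100a9. It was 0.57 for Mmp8, 0.22 for Trem1 and -0.03 for Ngp. Cxcr2 was at 0.63 and Il1r2 at 0.49. The 2 arrays left out were those farthest from the median in the mean of the other members. The range over the 7 arrays was therefore narrower, and these r values were not tested. Ngp was itself below its mean on WT replicate 2, at 561, and highest on HE replicate 3, at 904.

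**Figure D4:**
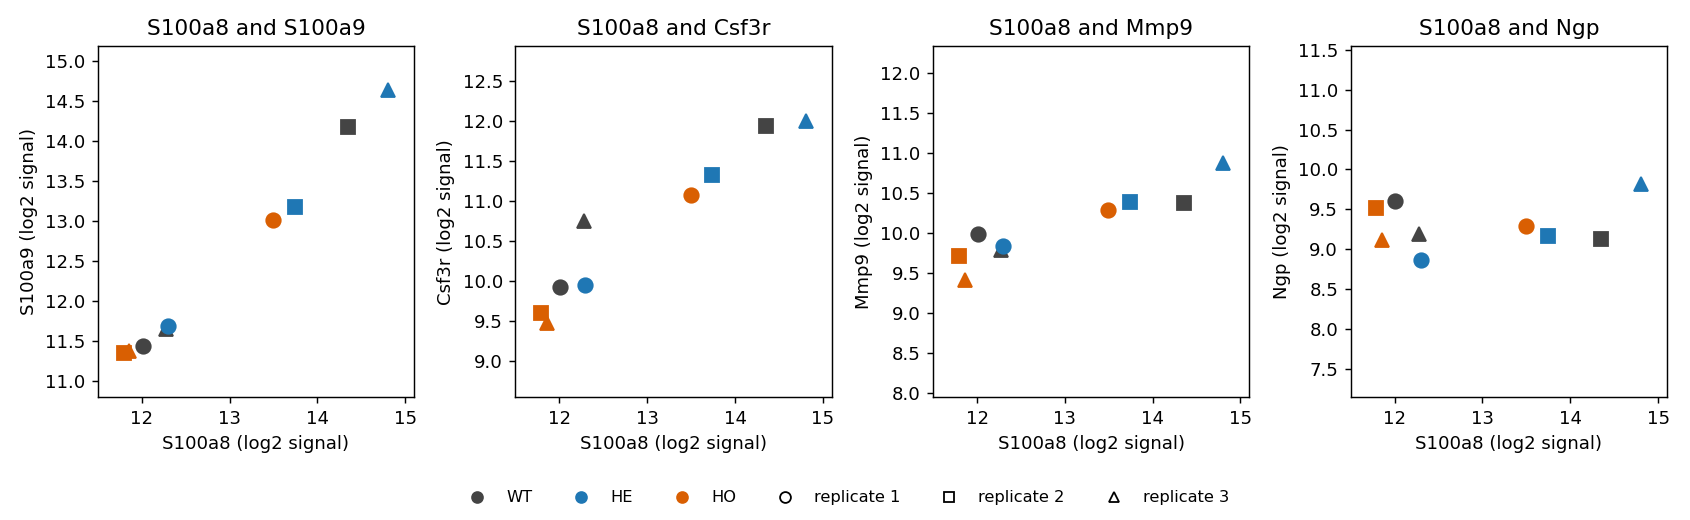
Log2 signal of S100a9, Csf3r, Mmp9 (brighter probe set) and Ngp against that of S100a8 on the 9 arrays, by genotype (colour) and replicate number (symbol); every vertical axis spans the same number of log2 units. S100a9 rises with S100a8 along a line (r = 0.9956), Mmp9 with a flatter slope, and Ngp (r = 0.23) shows no such line.

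Other genes of neutrophil biology were read from 7 lists, of which 48 genes passed the filter. The lists are not confined to neutrophils and share genes with others read below. Itgal is also on the monocyte list, Ppbp on the platelet list, Pecam1 on that of lung endothelium and Cebpd on the glucocorticoid-responsive list. Between genotypes 0 of 48 were called with limma, as were 0% of all probe sets. In HO minus WT, HE minus WT and HO minus HE, 1, 2 and 1 of the 48 had an unadjusted p under 0.05 in limma. Over all probe sets tested 4.49%, 3.11% and 2.56% did, and nothing is read from these counts. Their median r with the members was 0.40, with 36 of 48 above 0. The genes above 0.8, picked out after their values were seen, were the lectin receptor Clec4d (0.97), Il1b (0.85), the surface protease Adam8 (0.84), the siderophore-binding Lcn2 (0.83) and the complement C5a receptor C5ar1 (0.82). Clec4d was at 460, 1717 and 482 in WT, at 464, 1068 and 1804 in HE, and at 749, 378 and 391 in HO, an array order nearly that of S100a8.

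Among surface receptors and adhesion molecules, 15 of 15 tested genes had an estimate below WT in HO (median -0.20) and 12 of 15 below HE (median -0.14), with none called. Not all of these genes mark neutrophils alone: Itgal, also listed for monocytes, had an r of -0.17 with the members. With median centring these counts were 13 and 10 of 15, and with quantile normalization 15 and 11. In HO minus WT, Fpr2 (-0.015 ± 0.187) and Tlr2 (-0.015 ± 0.324) lay near 0. Il1rap was at -0.06, but at 0.13 at its other probe set above the filter and -0.42 at the one below it. That other probe set also gave 0.13 in HO minus HE, where the brighter one gave -0.22. In HE 11 of 15 were below WT (median -0.14; 9 with median centring, 10 with quantile normalization), where 7 of 9 members were above it. Over all probe sets tested, 48.8% were higher in HO than in WT, 47.8% higher in HE than in WT and 51.4% higher in HO than in HE. Examples are the IgG receptor gene Fcgr3 (HO minus WT -0.26), the paired receptor gene Pilrb1 (-0.55) and the cytokine receptor subunits Csf2ra (-0.28, 0.11 at a probe set below the filter) and Csf2rb (-0.42). Against HE, HO was at 0.17 for Fcgr3, 0.04 for Csf2ra, -0.22 for Pilrb1 and -0.35 for Csf2rb. Other granule and secreted proteins had 8 of 10 below HE in HO (median -0.18), but 6 of 10 with median centring and 7 of 10 with quantile normalization. Wfdc21 was at -0.39 ± 0.23 and Lrg1, a secreted glycoprotein, at -0.19 ± 0.24. Cd177 was at -0.24 ± 0.48 with r = 0.43. Its highest array was HO replicate 1, at 1470, against 725 on HE replicate 3. Ltf, lactoferrin of the secondary granules, was at -0.002 ± 0.413 with r = 0.08 (named after its values were seen). The subunits of the phagocyte oxidase, which makes superoxide, had 3 of 5 below HE in HO and a median of -0.04. The endothelial adhesion molecules ran against the members, at r = -0.61 for the mean of the list. Single genes ranged from -0.53 (Selp) to 0.72 (Icam1), with 1 of 5 above 0. In HO 4 of 5 were above HE (median 0.06) and 3 of 5 above WT (median 0.13), and in HE 4 of 5 were below WT (median -0.08). The median in HO minus HE was the value of Vcam1, which was at -0.05 and -0.37 at its other probe sets above the filter. Pecam1 was near 0 in HO minus HE, at 0.007.

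Genes made during maturation in the bone marrow differed in signal. Of the primary granule genes, which are transcribed in bone marrow precursors, Mpo (384 to 532), Elane (48.9 to 111), Prtn3 (28 to 118) and Ctsg (19.1 to 50.3) stayed below the filter, and Ctsg fell to the floor on some arrays. Ms4a3 passed and ran from 456 to 846, with r = -0.12. Of the secondary granule genes, Camp stayed between 20.2 and 65.5, below the filter, while Ltf (646 to 2427) and Ngp (469 to 904) passed it. Values at or near the floor of 25.8, such as those of Ctsg and Camp, give no order of the arrays.

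Of the granulocyte transcription factors, Cebpd was at -0.70 ± 0.22 in HO minus HE and correlated with the members at 0.77. Its other probe set gave -0.15 and r = 0.07. Cebpb was at -0.28 ± 0.19, and -0.10 at its other probe set, with r of 0.72 and 0.74. Spi1, which encodes PU.1, was at 0.05 ± 0.20 and Runx1 at -0.27 ± 0.23, with 0.04 to 0.21 at its other 3 probe sets above the filter. None of the 5 tested was called.

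Of the 7 attractants and growth factors tested, Cxcl2 was the one called between replicate numbers. Cxcl2, a chemokine that acts through Cxcr2, was at 386, 340 and 327 in number 1 (WT, HE, HO) and at 1166, 976 and 992 in number 2, with no overlap. Number 2 minus number 1 was 1.57 ± 0.18 on the log2 scale, with adjusted p = 0.0363 in limma's fit of genotype and number. Cxcl2 was the only one of the 48 neutrophil pathway genes called between numbers. Of all probe sets tested, 0.0295% were called between numbers 2 and 1. HO replicate 2 was thus high for Cxcl2 and lowest of all arrays for S100a8, and the r of Cxcl2 with the members was 0.18. In number 3 Cxcl2 was at 1330, 727 and 621. Cxcl1 was at 447, 388 and 566 in number 1 and at 1670, 1010 and 880 in number 2, without being called (r = 0.50). Il1b, which encodes interleukin 1 beta, had an r of 0.85 with the members and was not called between numbers.

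The Cxcl2 difference stayed between 1.44 and 1.69 under 17 alternatives, with adjusted p between 0.0209 and 0.397 in limma, and was called in 7. Leaving out an HE array ended the call, with adjusted p of 0.266 (replicate 1), 0.253 (replicate 2) and 0.112 (replicate 3). So did leaving out HO replicate 1 (0.1005), HO replicate 2 (0.177), the first WT array (0.128) or the second (0.0669). It was also lost with quantile normalization (0.0571), without the filter (0.397) and with HO replicate 2 counted as HE (0.0557).

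Markers of other blood and lung cells were read beside the members. Correlations used the genes that passed the filter. Summed intensities used every listed gene with a probe set: 15 for T and NK cells, 8 for monocytes, 8 for B cells, 7 for erythroid cells and 8 for platelets. T cell and NK cell genes (10 of 17 listed passed the filter) ran against them at r = -0.69, with summed intensities of 10070 to 11676 in WT, 10296 to 11160 in HE and 10122 to 13104 in HO. Monocyte genes (8 of 12) gave -0.63, with sums of 26203 to 30484, 26094 to 29202 and 26378 to 31318. Csf1r (10646 to 13662) and Ace (8612 to 14294) made most of each sum, so the sums say little of the other genes on that list. B cell genes (6 of 10) gave -0.41, with sums of 7444 to 7867 in WT, 5563 to 7649 in HE and 5645 to 9184 in HO. The mean of that list was lowest on HE replicate 3, at -0.41, and in HE 6 of 6 had an estimate below WT (median -0.27), with none called. Alveolar macrophage genes (8 of 14) gave r = -0.06 and rho = -0.50, platelet genes (7 of 10) -0.12 and erythroid genes (3 of 12) -0.03. Summed erythroid intensity was 16056 to 22804 in WT, 17587 to 28312 in HE and 20985 to 27358 in HO, with Car1 at the floor on some arrays. Platelet sums were 10808 to 13012, 10667 to 12138 and 10136 to 13894. The mean of the erythroid list was 0.27 above its average on HE replicate 3 and -0.29 on WT replicate 2, the arrays highest in S100a8. That mean rests on Alas2, Car2 and Tfrc, whose r with the members was 0.03, -0.61 and 0.13. Whether these genes follow the blood content of the lungs was not tested, nor was their part in the neutrophil values. Eosinophil, mast cell and basophil genes were mostly dim (2 of 14 passed), with Prg2, Il5ra and Mcpt4 at the floor on some arrays.

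**Figure D5:**
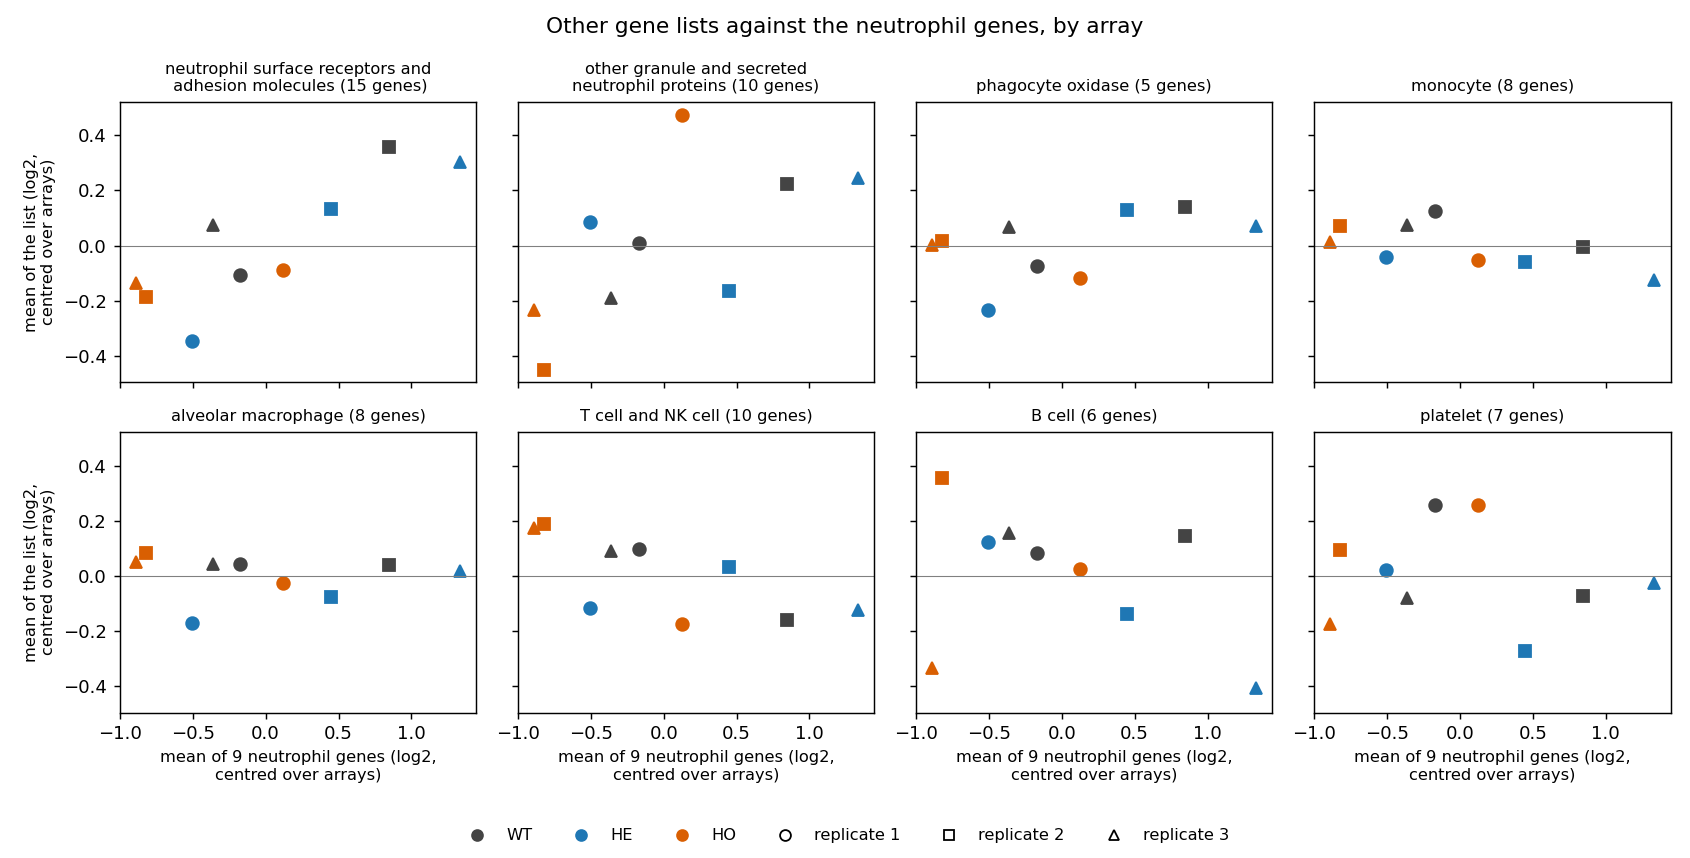
Mean log2 signal of 8 gene lists, each gene centred over the 9 arrays, against the mean of the 9 members on the same array, by genotype (colour) and replicate number (symbol). Neutrophil surface receptors rise with the members (r = 0.85), while T cell and NK cell genes are lower where the members are higher (r = -0.69).

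Genes outside all lists were ranked by r with the mean of the members over the 9 arrays, as a description. The highest were the potassium channel subunit Kcne2 (0.951), the glucose transporter Slc2a3 (0.945), the transcription factor Klf6 (0.941), Pitpnc1 (0.927), Stard4 (0.922), Slc35a2 (0.922), the proteasome subunit Psmb2 (0.909), Slc22a12 (0.908), Atp6ap2 (0.908) and Ptpn11 (0.908). They moved far less than S100a8: Slc2a3 ran from 648 on HE replicate 1 to 1541 on HE replicate 3, and Klf6 from 5743 to 8288 on the same arrays. The lowest were Myg1 (-0.949), Ciapin1 (-0.923), the nuclear import receptor Kpna2 (-0.919), Apmap (-0.918) and Exoc8 (-0.912). Over all probe sets tested, 20 had an r above 0.9, in a mean that the members themselves form.

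Glucocorticoid-responsive genes correlated with the members at 0.47. Their list mean was 0.25 above its average on HE replicate 3 and 0.27 above it on HO replicate 1, but -0.11 on WT replicate 2, which was next to highest for the members. Of the 14 genes tested 11 had an r above 0, from -0.23 for Fkbp5, a co-chaperone of steroid receptors, to 0.81 for Errfi1 (named as the highest). The other genes named by the rule were Cebpd (0.77), Angptl4 (0.41) and Sult1a1 (0.05). In HE 13 of the 14 had an estimate above WT (median 0.33; 12 of 14 with quantile normalization), with none called, and in HO 10 of 14 were below HE (median -0.10). Il1r2 stands on this list as well as among the members, and the part of this list in the neutrophil values was not tested.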

How the data were processed

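Per the labels, biotinylated total RNA of mouse lung was read on Affymetrix 430A arrays. The values the authors deposited are intensities on a linear scale, 1 for each probe set on each array. From the values, each array was scaled to a mean of 1500 after trimming 2% at each end; the sources used here do not name the summarisation software. Groups and replicate numbers came from the sample titles.

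Intensities were raised to the 5th percentile (25.8) and converted to log2. Control probe sets were left out, and the dimmest 40% (mean log2 under 8.90) were filtered, leaving 13576. Group means were fitted to all 9 arrays with limma 3.58.1 (R 4.3.3), with Benjamini-Hochberg adjustment over all of them at 0.05; a second fit had genotype and replicate number. The fit was tested on simulated data. Deviations from group means correlated, for numbers 1, 2 and 3, at 0.193, 0.139 and 0.276 between HO and WT. Between HE and WT they correlated at 0.301, 0.050 and 0.043, and between HO and HE at 0.156, 0.150 and 0.028. Arrays of unlike numbers were not compared in this way, so these values do not show whether the numbers mark pairs. The main fit of the genotypes left number out, and the replicate block was an alternative. No array copied another (smallest median absolute log2 difference 0.145).

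Symbols came from the platform annotation (20380 probe sets with 1 symbol, 691 with several, 1555 with none). Each gene was read at its brightest probe set. Named genes were all members, up to 4 per other list by lowest F-test p, and the 10 most and 5 least correlated genes outside the lists. Members and lists were chosen with earlier results of these data known. Alternatives changed the scaling, filter, floor, eBayes, array weights, replicate block, arrays in the fit, and 1 label, and left out each array.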

Additional observations from a re-analysis of the deposited data

How the results depend on the processing

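Between genotypes the count of called probe sets was 0 and stayed 0 under the alternatives, except for 2 in HE minus WT and 2 in HO minus HE without the filter, and 0 to 1 in HO minus WT and in HE minus WT when single arrays were left out. With the replicate block the counts were 0 in all 3 comparisons, with 808, 591 and 474 probe sets at an unadjusted p under 0.05 in limma, against 610, 422 and 348 without it; it changed no call. Between numbers 2 and 1 the count was 4, then 0 without the filter, 0 with HO replicate 2 counted as HE, 9 with a trended and robust eBayes, and 0 to 6 without single arrays. Between numbers 3 and 1 it was 0, then 3 with the trended and robust eBayes and 0 to 1 without single arrays. The members' median in HO minus HE changed from -1.12 to -0.45 with HO replicate 2 counted as HE, and ran from -1.62 to -0.59 without single arrays. In number 3 minus number 1 it was 0.37 and ran from -0.44 to 0.85 without single arrays. Leaving out WT replicate 2 and HE replicate 3 together, chosen after seeing the data, gave a median r of 0.63 in place of 0.86; it ran from 0.79 to 0.95 without single arrays. The cause of these shifts was not tested.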
